A study of Sus scrofa with 32 samples.

Results

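Luminal epithelium (LE) and stroma (S) of the endometrium of cyclic gilts were compared on Day 14, in 8 of the 31 libraries of the series with counts, 1 library of each compartment from each of 4 gilts. The libraries were chosen by compartment and reproductive state as the labels give them, and LE and S of the same animal were paired by the number in the library names. The gilts are called C40, C42, C78 and C128 here, with C for the control state and that number. Cyclic gilts were labelled as nonpregnant on Day 14, counted from ovulation in the labels and from insemination in the study's methods, where they were prepuberal animals synchronised with eCG and hCG and inseminated with the supernatant of semen, so that no conceptus was present. The 4 pregnant gilts, used below only to set the cyclic difference beside theirs, had the same synchronisation and were inseminated with semen of a German Landrace boar. The compartments were cut out by laser capture microdissection (LCM), a laser-guided excision of cells from tissue sections under the microscope, and total RNA of the captured cells was amplified and sequenced. Each library therefore holds a pool of all the cells in the excised area of 1 gilt. No breed of the gilts and no exact age was given in the sources used here. Of 30185 genes counted, 12959 were tested, namely those which the authors kept in their filtered table of LE or of S, with 10978 kept in both, 1024 only in LE and 957 only in S.

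The LE is the sheet of polarised cells that lines the uterine lumen, faces the conceptus and secretes into and absorbs from the uterine fluid. The S beneath it consists of fibroblasts in a collagen-rich matrix and is crossed by small vessels, nerves and leukocytes, and both layers exchange growth factors, WNT and hedgehog signals and prostaglandins across the basement membrane. In the pig the LE stays intact, because the conceptus attaches to it without invading, and on Day 14 of the oestrous cycle the endometrium is close to the release of luteolytic prostaglandin F2α.

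Library totals were between 3571436 and 4582841 counts in LE and between 3095926 and 5388161 in S. Levels are given as CPM, counts scaled to a common library size, after TMM normalisation, a scaling that corrects for differences in the composition of libraries, and the values of 4 libraries always stand in the order of gilts C40, C42, C78 and C128. A total of 3 counts over a group, the lowest amount read as detection, correspond to 0.188 CPM in LE and 0.174 CPM in S, and these limits cover counting error only.

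The labelled tissues carried their markers. All 8 epithelial markers, among them EPCAM, CDH1, KRT8, KRT18, KRT19, ESRP1 and CLDN4, were higher in LE, and their summed level was between 2863 and 3546 CPM in LE and between 14.3 and 192 CPM in S. All 8 fibroblast markers (PDGFRA, COL1A1, COL1A2, COL3A1, DCN, LUM, THY1 and TCF21) were higher in S, where they summed to between 37330 and 107200 CPM, against 4338 to 14300 CPM in LE. None of 11 endothelial markers was called, with sums between 153 and 798 CPM in LE and between 611 and 1929 CPM in S. Of 10 markers of smooth muscle and pericytes 1 was higher in S, with sums of 420 to 933 CPM in LE and 532 to 2295 CPM in S. Of 14 leukocyte markers tested 7 were higher in S, and the B cell markers CD79A and MS4A1 had no count in LE. Over all genes tested, 10.8% were higher in S. The 2 erythroid markers tested were not called, and all 5 matched genes of that list summed to 59.1 to 181 CPM in LE and 277 to 1174 CPM in S. The 3 gland markers tested were higher in LE. All 11 matched genes of the gland list summed to 402 to 668 CPM in LE and 13.1 to 47.1 CPM in S. PAX2, 1 of the 3 tested, had a mean of 282 CPM in LE. FOXA2, MUC5B, MUC6 and RLBP1 of the list were not among the genes tested, and CYP2C36 and CYP2C49 had no count in S. The S libraries of gilts C128 and C78 held more epithelial RNA than those of gilts C40 and C42, with epithelial markers at a median of 5.93% and 5.31% of the level in LE of the same gilt, against 0.678% and 0.402%. Fibroblast markers in LE were at a median of 10.6% to 19.2% of the level in S of the same gilt. In captured tissue, fewer cells of a type and less RNA per cell cannot be told apart.

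**Figure D1:**
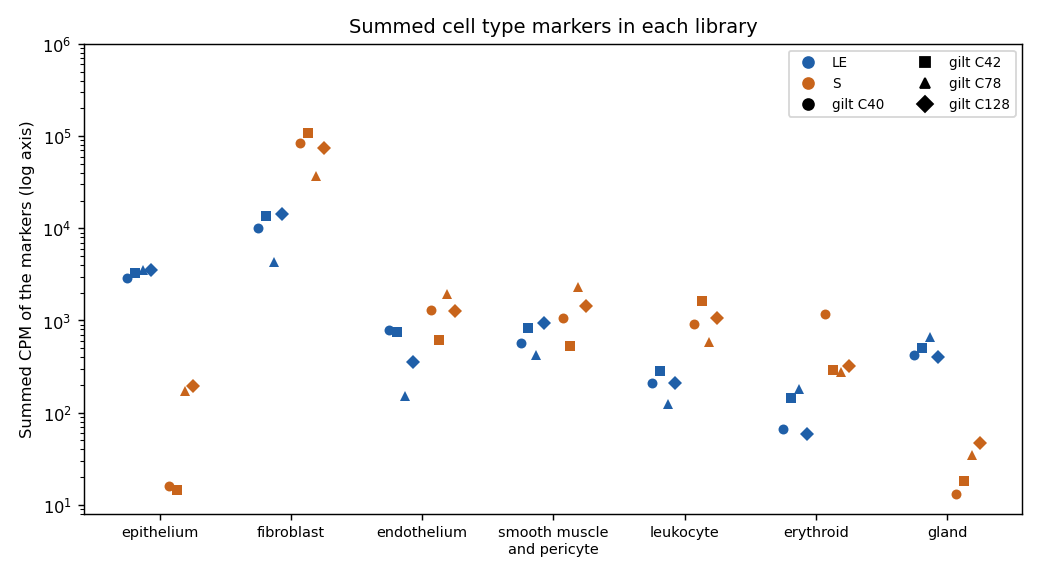
Summed CPM of the markers of 7 cell types (log axis) in the 4 LE libraries (blue) and the 4 S libraries (orange) of cyclic gilts, with the gilt shown by the shape of the point. Epithelial markers are between 14.3 and 192 CPM in S and at least 2863 CPM in LE, while fibroblast markers reach 4338 to 14300 CPM in LE.

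LE and S differed in 3142 genes, 24.2% of the genes tested, at a false discovery rate (FDR) of 1% in edgeR's quasi-likelihood test with the gilt as a block. Of these, 1747 genes (13.5%) were higher in LE and 1395 (10.8%) were higher in S, and a gene is called below when it passed this limit. With the further demand of a 4-fold difference, 936 genes (7.22%) were higher in LE and 767 (5.92%) in S. The direction was the same in all 4 gilts for 925 of the 936 and for all 767, and LE and S did not overlap in 872 and 740 of them. Of all genes tested, 2974 (22.9%) were higher in LE and 2611 (20.1%) higher in S without overlap. Within gilt C128, 75.3% of the 936 genes and 58.8% of the 767 genes differed at least 4-fold between its LE and S libraries, against 87.7% to 92.2% and 68.4% to 79.5% in the other 3 gilts. The differences were of unequal size. Of the 936 genes, 396 (42.3%) differed by more than 4 on the log2 scale, against 14 of the 767 (1.83%), and the medians of the fitted log2 difference (LE minus S) were 3.72 and -2.48. Over the genes with at least 20 CPM, the LE level of genes at least 4-fold higher in S was at a median of 12.3% to 22.9% of the S level in the 4 gilts, and the S level of genes at least 4-fold higher in LE at 4.90% to 12.6% of the LE level. The part of stromal RNA in the LE captures in this difference of size was not tested.

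The number of calls depended on which gilts entered the fit. Without gilt C40 no gene passed an FDR of 1% by edgeR's quasi-likelihood test. The smallest adjusted p there was 0.0105, and 5461 genes had an unadjusted p under 0.05. The 1703 genes with a 4-fold difference all kept their direction. They were chosen from these same libraries, and 925 of the 936 and all 767 already had 1 direction in every gilt. A reversal was therefore hardly possible. DESeq2 without gilt C40, a test added after the data had been seen, called 1544 genes higher in LE and 1366 higher in S, with 913 of the 936 and 715 of the 767 genes among them. Without gilt C42 the counts were 733 and 533, without gilt C128 they were 1205 and 725, and without gilt C78 they were 1373 and 1327. Leaving out gilts C128 and C78, whose S libraries held more epithelial RNA, gave 2425 and 2152 calls, also chosen after the data had been seen. Only gilts C40 and C42 remained in that fit, so the spread of a gene was barely measured. These counts cannot be compared with those of 4 gilts, and whether the epithelial RNA bears on them was not tested.

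**Figure D2:**
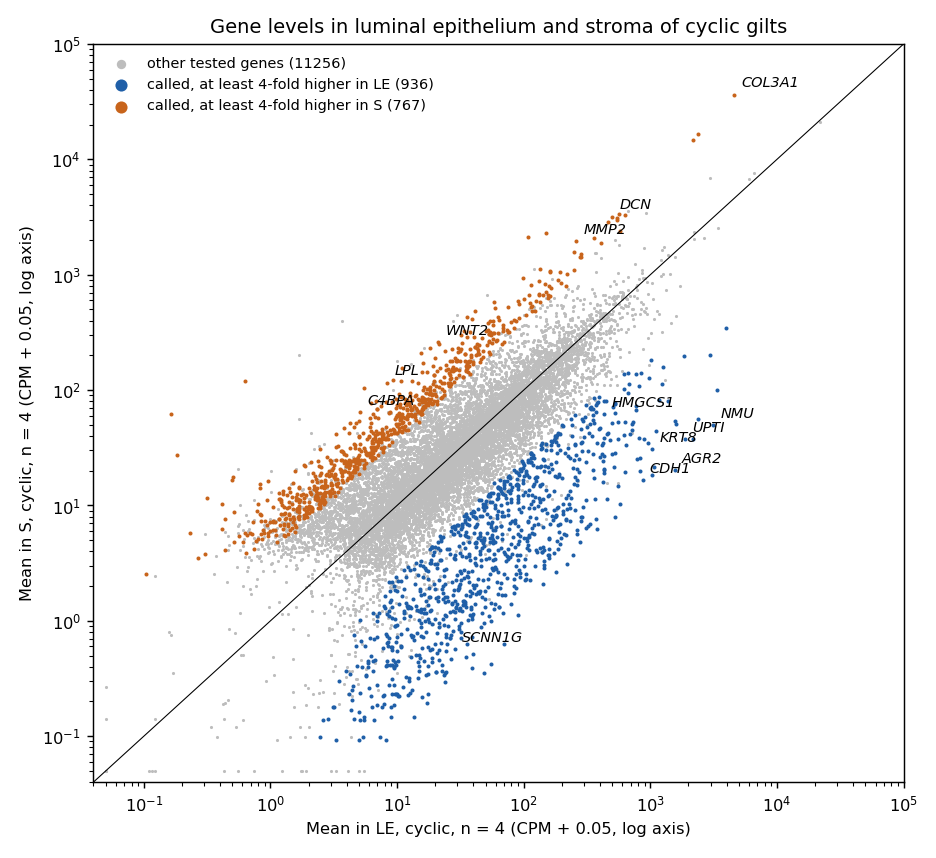
Mean level of each of the 12959 tested genes in LE (x axis) and S (y axis) of 4 cyclic gilts, as CPM + 0.05 on log axes, with the line of equal levels. The 936 genes called and at least 4-fold higher in LE (blue) reach farther from the line than the 767 higher in S (orange), with 396 and 14 of them beyond a log2 difference of 4.

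Among genes with at least 20 CPM in LE, the 12 with the widest differences in favour of LE included secreted proteins, transporters and enzymes. AGR2, a protein disulfide isomerase of mucus-producing epithelia (gene 100514482, chr9:86042070-86053893), had 1971, 2600.5, 1630.5 and 30.3 CPM in LE and 7.54, 1.10, 71.6 and 0.387 CPM in S, a fitted log2 difference of 7.33 ± 1.17 (SE, adjusted p = 0.00445, edgeR quasi-likelihood test). NMU, the neuropeptide neuromedin U (gene 100523263, chr8:54952333-54978577), had 3697, 3818, 3139.8 and 1944 CPM in LE and 7.26, 1.10, 153 and 36.2 CPM in S, a difference of 7.23 ± 1.35 (adjusted p = 0.00752). NOS1, the neuronal nitric oxide synthase (gene 100520934, chr14:35112898-35299297), had 3532, 2794, 3138 and 118 CPM in LE and 12.6, 2.20, 205 and 2.52 CPM in S, a difference of 6.83 ± 1.20 (adjusted p = 0.00615). AGR2 and NOS1 were low in LE of gilt C128, which fell within the range of S, while all 4 LE libraries of NMU lay above all S libraries, and the S library of gilt C78 had the highest S level of all 3 genes. UPTI, the uterine plasmin and trypsin inhibitor that the pig uterus secretes (gene 396887, chr17:47792171-47807770), had 1224, 3034, 1791 and 1457 CPM in LE and 5.87, 2.20, 100.4 and 41.6 CPM in S, a difference of 6.47 ± 1.14 (adjusted p = 0.00618). SLC28A3, a nucleoside transporter (gene 100621750, chr10:30663060-30730766), had 744, 723, 1223 and 1443 CPM in LE and 0.559, 0.367, 47.6 and 25 CPM in S, a difference of 6.90 ± 1.08 (adjusted p = 0.0042). In both of these genes LE and S did not overlap, and S of gilts C78 and C128 stood above S of gilts C40 and C42.

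A further 6 genes completed the widest differences on this side, beside CDH1, which is described with the epithelial genes. UGT2B31, a UDP-glucuronosyltransferase (chr8:66310697-66323755), had 63.3, 61.1, 53.1 and 14.9 CPM in LE and 0, 0, 1.22 and 0 CPM in S, and TMC5, a transmembrane channel-like protein (chr3:26211425-26287147), had 25.5, 21.0, 10.1 and 99.5 CPM in LE and 0, 0, 0 and 1.36 CPM in S. FGG, the fibrinogen gamma chain (chr8:74553040-74562151), had 57.2, 51.9, 11.3 and 99.2 CPM in LE and 0, 0, 0.523 and 0.968 CPM in S. In these genes 2 or 3 S libraries had no count, and their log2 differences were 6.91 ± 0.68, 6.82 ± 0.52 and 6.74 ± 0.66 (adjusted p = 0.00125, 0.000857 and 0.00121). WDR72, known from enamel formation (chr1:117946022-118161827), had 244, 218, 390.3 and 135 CPM in LE and 0.838, 0, 12.2 and 1.74 CPM in S (difference 6.54 ± 0.73, adjusted p = 0.00151). ATP13A4, a P5-type ATPase (chr13:130436995-130590124), had 237, 284, 615 and 394 CPM in LE and 0.279, 0.367, 16 and 8.33 CPM in S (difference 6.45 ± 0.74, adjusted p = 0.00165), and CLDN8, a claudin of tight junctions (chr13:193563314-193564090), had 550.1, 621, 598 and 551 CPM in LE and 1.96, 0.735, 25.3 and 13.4 CPM in S (difference 6.35 ± 0.86, adjusted p = 0.00269). CLDN8 was the most even of the 12, with a mean of 579.9 ± 35.1 CPM in LE (SD, n = 4).

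Per kilobase of exon, 7 of the 8 highest levels among genes at least 4-fold higher in LE are given here. NMU had 3608 CPM per kb in LE, AGR2 had 1775 and the acid ceramidase ASAH1 had 1428. Lower levels were those of UPTI with 959, CLDN8 with 746, the galactose-binding lectin LGALS3 with 716 and FDPS, an enzyme of the mevalonate pathway, with 707 CPM per kb. ASAH1 had 3847, 3533, 4399 and 1673 CPM in LE and 46.7, 56.9, 226 and 74.2 CPM in S (log2 difference 5.26 ± 0.47, adjusted p = 0.00107). LE and S did not overlap in ASAH1.

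Epithelial identity genes were almost completely on the side of LE. Of 23 tested members of the list 22 were higher in LE and none in S, shares of 95.7% and 0% against 13.5% and 10.8% of all genes. The median log2 difference was 4.85 over the list and 0.0345 over all genes tested. CDH1, which encodes E-cadherin of adherens junctions (gene 100048953, chr6:18075487-18155986), had 826, 767, 1028 and 852 CPM in LE and 2.23, 1.10, 39.7 and 23.0 CPM in S (log2 difference 6.46 ± 0.91, adjusted p = 0.00304). KRT8, a keratin of simple epithelia, had 905, 1084, 914 and 1234 CPM in LE and 4.75, 4.04, 51.4 and 63.7 CPM in S (5.79 ± 0.88, adjusted p = 0.00376), and its filament partner KRT18 had 224, 249, 194 and 162 CPM in LE and 1.96, 1.10, 12.2 and 6.97 CPM in S (5.37 ± 0.65, adjusted p = 0.00192). In each of the 3 genes LE lay above S without overlap, and S of gilts C78 and C128 held more than S of gilts C40 and C42. MAL2, a protein of apical transport (5.95 ± 1.0, adjusted p = 0.00532), the keratin KRT7 (5.63 ± 0.66, adjusted p = 0.00176) and EPCAM (5.2 ± 0.92, adjusted p = 0.00619) differed by similar amounts. The splicing regulator ESRP1 had 198, 170.3, 301 and 79.3 CPM in LE and 0, 0.735, 16.4 and 9.88 CPM in S (5.12 ± 1.0, adjusted p = 0.00885). GRHL2, a transcription factor of epithelia, had 74.9, 64.2, 142 and 84.3 CPM in LE and 1.40, 0, 3.66 and 5.81 CPM in S (5.15 ± 0.56, adjusted p = 0.00143). OVOL2, another such factor, was the member not called, with 1.74, 1.73, 6.01 and 2.93 CPM in LE and 0, 0, 0.174 and 0.581 CPM in S and a difference of 3.79 ± 0.78 (adjusted p = 0.0107).

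Promoters of these genes are shown because repressors of the SNAI and ZEB families, which were higher in S (below), are known to bind the E-box CACCTG. Sequences run from 250 bases before to 50 bases after the annotated gene start in Sscrofa11.1 (RefSeq), on the strand of the gene, with each CACCTG or its reverse complement CAGGTG in capitals.
CDH1 (chr6:18155937-18156236, minus strand): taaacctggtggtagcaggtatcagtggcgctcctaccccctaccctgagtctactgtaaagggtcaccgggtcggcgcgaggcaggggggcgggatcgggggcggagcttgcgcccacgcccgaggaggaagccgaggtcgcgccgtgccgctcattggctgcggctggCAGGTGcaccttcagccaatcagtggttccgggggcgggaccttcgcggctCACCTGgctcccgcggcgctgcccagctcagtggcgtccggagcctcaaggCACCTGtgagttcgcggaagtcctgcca
KRT8 (chr5:18180228-18180527, minus strand): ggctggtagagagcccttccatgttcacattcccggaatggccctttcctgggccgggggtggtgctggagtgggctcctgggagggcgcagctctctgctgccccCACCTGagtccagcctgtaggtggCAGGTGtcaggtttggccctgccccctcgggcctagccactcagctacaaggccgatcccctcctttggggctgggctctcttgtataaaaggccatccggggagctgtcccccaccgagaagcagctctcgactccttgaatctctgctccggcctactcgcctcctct
KRT18 (chr5:18217436-18217735, plus strand): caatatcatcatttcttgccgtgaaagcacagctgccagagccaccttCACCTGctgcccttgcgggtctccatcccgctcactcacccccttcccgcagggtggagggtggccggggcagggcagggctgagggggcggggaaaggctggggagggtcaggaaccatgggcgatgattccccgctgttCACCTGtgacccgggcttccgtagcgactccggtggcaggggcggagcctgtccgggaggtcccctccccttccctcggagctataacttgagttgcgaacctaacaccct
ESRP1 (chr4:42061657-42061956, minus strand): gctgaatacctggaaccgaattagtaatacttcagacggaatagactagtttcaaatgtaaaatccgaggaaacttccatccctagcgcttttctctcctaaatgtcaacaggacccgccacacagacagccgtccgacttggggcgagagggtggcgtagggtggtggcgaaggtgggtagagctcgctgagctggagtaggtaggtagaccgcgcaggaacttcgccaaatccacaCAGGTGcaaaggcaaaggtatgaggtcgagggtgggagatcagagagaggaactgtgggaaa
GRHL2 (chr4:35565345-35565644, minus strand): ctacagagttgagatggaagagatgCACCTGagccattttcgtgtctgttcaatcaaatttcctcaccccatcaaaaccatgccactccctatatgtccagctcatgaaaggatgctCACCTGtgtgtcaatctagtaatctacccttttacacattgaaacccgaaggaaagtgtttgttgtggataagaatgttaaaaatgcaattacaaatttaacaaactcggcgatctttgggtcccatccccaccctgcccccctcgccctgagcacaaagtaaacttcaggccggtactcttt
The first base of a match lies at -80, -29 and 23 in CDH1, at -144 and -120 in KRT8, at -202 and -61 in KRT18, at -12 in ESRP1 and at -225 and -133 in GRHL2, counted from the gene start with no position 0. The E-box was present in 13 of the 23 promoters of the list (56.5%). Of all 12953 promoters of tested genes with a sequence 21.0% held it, and so did 33.4% of the 936 genes at least 4-fold higher in LE, 19.6% of 765 genes at least 4-fold higher in S and 15.5% of the 58 promoters of stromal matrix genes. The median GC content was 60.3% in the list and 61.3% in all promoters. The grainyhead motif AACCGGTT was found in 0.108% of all promoters and in 1 of the list, that of OVOL1. A match of letters is a description of the sequence and not a binding site.

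Junction genes followed in part. Of 33 tested tight junction genes 19 were higher in LE and 2 in S, shares of 57.6% and 6.06% against 13.5% and 10.8% of all genes. The median log2 difference of this list was 2.18. Beside CLDN8, the claudins CLDN4 (216, 383, 354 and 195 CPM in LE and 1.40, 2.57, 18.3 and 9.30 CPM in S, 5.45 ± 0.64, adjusted p = 0.00177), CLDN7 (4.79 ± 0.72, adjusted p = 0.00367) and CLDN3 (4.39 ± 0.77, adjusted p = 0.00618) were higher in LE, as was the tricellular junction protein ILDR1 (5.21 ± 0.82, adjusted p = 0.00425). OCLN, which encodes occludin, had 351 ± 64.1 CPM (SD, n = 4) in LE and 27.7 ± 14.8 CPM in S (3.78 ± 0.47, adjusted p = 0.00204). The scaffold TJP1, which binds claudins inside the cell, did not pass the limit, with 653 ± 135 and 464 ± 61.6 CPM (0.48 ± 0.18, adjusted p = 0.0801). The angiomotin-like genes AMOTL1 (-2.17 ± 0.26, adjusted p = 0.0019) and AMOTL2 were the 2 members higher in S.

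Of 31 genes of adherens junctions, desmosomes and gap junctions 14 were higher in LE and 3 in S (median 1.37). The shares were 45.2% and 9.68%, against 13.5% and 10.8% of all genes. The desmosomal linker DSP had 666, 545, 540.4 and 781 CPM in LE and 1.40, 3.31, 35.6 and 37.4 CPM in S (5.71 ± 0.92, adjusted p = 0.00458), with no overlap, and the desmosomal cadherin DSG2 (5.57 ± 0.41, adjusted p = 0.000857) and NECTIN4 (5.93 ± 0.53, adjusted p = 0.00106) were also higher in LE. CDH17, a cadherin of the intestine, had 80.5, 47.2, 26.0 and 1932 CPM in LE and 0.279, 0, 1.39 and 30.02 CPM in S (5.99 ± 0.61, adjusted p = 0.00128). Its mean in LE was carried by gilt C128, whose S library was also the highest S library and overlapped LE of gilt C78. The members higher in S were CDH11, the cadherin of mesenchymal cells (38.5 ± 15.4 CPM in LE and 192 ± 32.9 CPM in S, -2.40 ± 0.25, adjusted p = 0.00129), NECTIN3 and the gap junction gene GJA1, or connexin 43 (-1.06 ± 0.20, adjusted p = 0.0084). CTNNB1, whose product links cadherins to the cytoskeleton and carries WNT signals, had 416 ± 86.2 CPM in LE and 450.0 ± 89.1 CPM in S (-0.11 ± 0.25, adjusted p = 0.728).

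Mucins and the enzymes that start their sugar chains were split, with 7 of 26 tested members higher in LE and 4 in S. These shares were 26.9% and 15.4%, against 13.5% and 10.8% of all genes. The membrane mucin MUC4 had 67.9, 84.7, 149 and 13.8 CPM in LE and 0, 0, 5.23 and 0.194 CPM in S (6.10 ± 0.70, adjusted p = 0.00168), and MUC1, the mucin best known from uterine epithelium, had 158, 141, 173 and 101 CPM in LE and 0.279, 0, 8.37 and 7.55 CPM in S (5.36 ± 0.88, adjusted p = 0.00487), both without overlap. The gel-forming mucin MUC5AC had 93.2, 199, 65.9 and 0 CPM in LE and 0.279, 0, 4.01 and 0 CPM in S (6.05 ± 1.03, adjusted p = 0.00811) and no count in either compartment of gilt C128. GALNT3, which attaches the first sugar, was higher in LE (5.56 ± 0.59, adjusted p = 0.00139), and its relative GALNT16 in S (-3.05 ± 0.48, adjusted p = 0.00412).

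Integrins, the receptors for matrix, had called members on both sides. Of 28 tested integrins and ligands, 7 were higher in LE and 8 in S, shares of 25% and 28.6% against 13.5% and 10.8% of all genes. Higher in LE were the laminin receptor chains ITGA6 (1319.8, 1064, 868 and 674 CPM in LE and 127, 52.9, 171 and 155 CPM in S, 3.02 ± 0.42, adjusted p = 0.00279), ITGB4 (354, 425, 429.5 and 458 CPM in LE and 18.7, 22.0, 39.6 and 52.9 CPM in S, 3.75 ± 0.27, adjusted p = 0.000856) and ITGA3 (4.49 ± 0.41, adjusted p = 0.00109) and the collagen receptor chain ITGA2 (4.57 ± 0.58, adjusted p = 0.0022). ITGA6 and ITGB4 form 1 receptor at the base of epithelia, and neither overlapped between LE and S. ITGB6, an epithelial chain with 3 counts in all S libraries, had 71.4 times the level in LE by the ratio of pooled counts (95% interval 24.1 to 349). The fibronectin receptor chain ITGA5 (-2.27 ± 0.39, adjusted p = 0.00568), ITGA8 of mesenchyme (-2.39 ± 0.38, adjusted p = 0.0045) and the leukocyte chain ITGAM (-2.80 ± 0.26, adjusted p = 0.00109) were higher in S. ITGAV had 198 ± 102 CPM in LE and 185 ± 23.7 CPM in S (-0.01 ± 0.29, adjusted p = 0.971), and the secreted ligand SPP1, or osteopontin, had 54.4 ± 14.3 and 88.9 ± 41.3 CPM (-0.61 ± 0.47, adjusted p = 0.32).

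**Figure D3:**
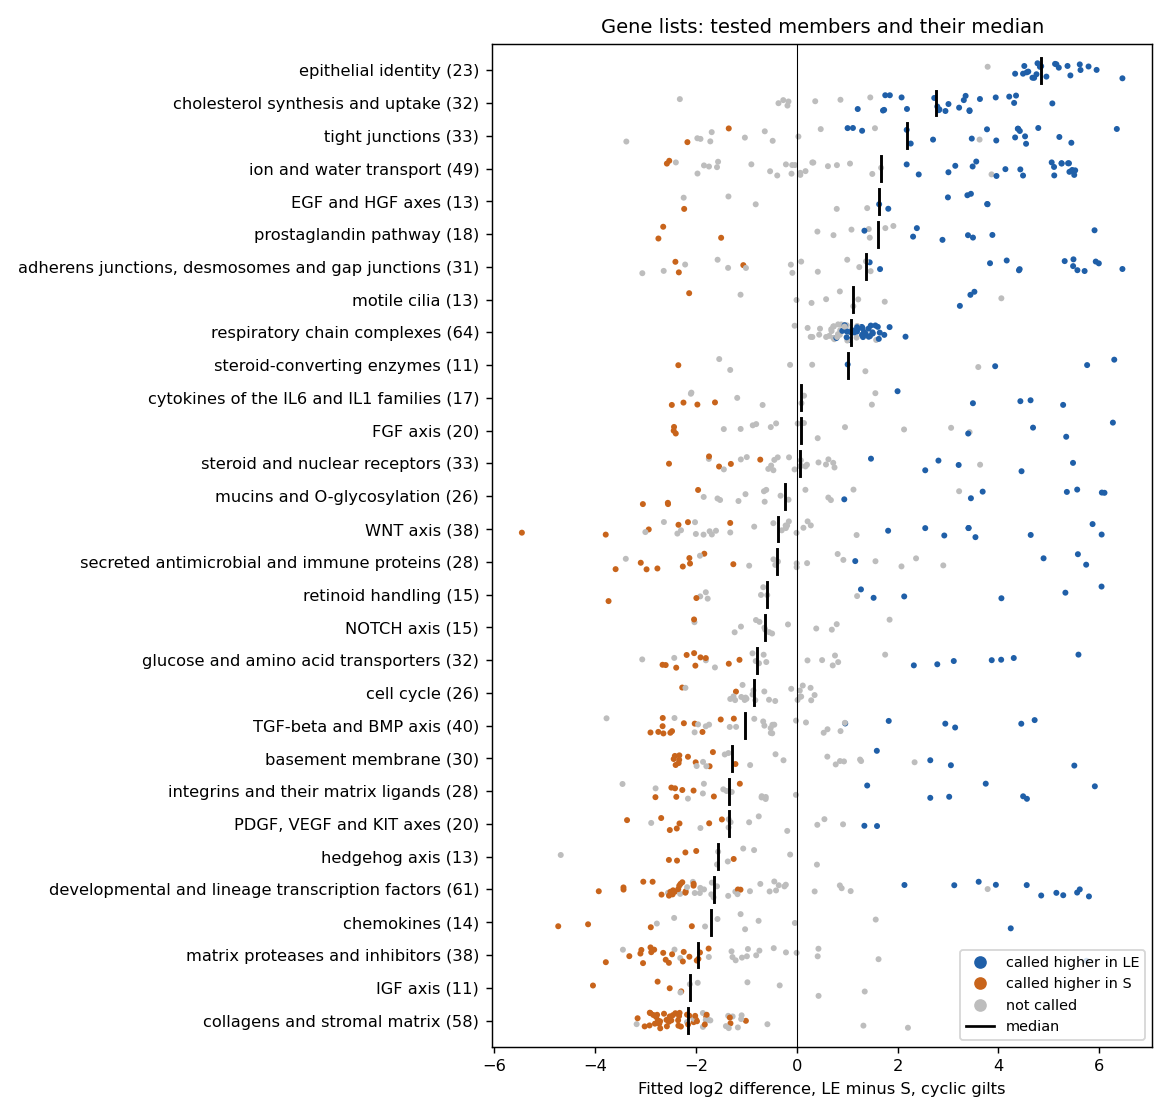
Fitted log2 differences (LE minus S) of the tested members of 30 gene lists, ordered by the median of the list (black bar), with the number of tested members in brackets. Points are blue when called higher in LE, orange when called higher in S and grey when not called. Epithelial identity (median 4.85) and cholesterol synthesis (2.76) stand at the top and stromal matrix (-2.16) at the bottom, and the members on the S side seldom pass -4.

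In the same way, the 12 genes with at least 20 CPM in S and the widest differences in favour of S included enzymes, receptors and secreted proteins. LPL, the lipoprotein lipase (gene 397537, chr14:4104761-4134964), had 5.01, 7.49, 11.8 and 8.78 CPM in LE and 108, 138, 99.9 and 118 CPM in S (log2 difference -3.84 ± 0.27, adjusted p = 0.000832). WNT2, a ligand of the WNT family (gene 100516839, chr18:28945825-28993969), had 11.3, 13.5, 9.38 and 49.8 CPM in LE and 249, 313, 86.8 and 399 CPM in S (-3.79 ± 0.35, adjusted p = 0.00109). RORB, an orphan nuclear receptor (gene 100739111, chr1:227573972-227776806), had 146, 116, 169 and 164 CPM in LE and 2859, 4059.5, 834 and 1395 CPM in S (-3.70 ± 0.53, adjusted p = 0.00308). LE and S did not overlap in any of the 3, although the S library of gilt C78 was the lowest in each. ADAMTS4, an aggrecan-cleaving protease (chr4:89260354-89269238), had 7.4, 4.90, 4.81 and 4.52 CPM in LE and 47.2, 119, 226 and 21.7 CPM in S (-3.78 ± 0.61, adjusted p = 0.00458), and C4BPA, a regulator of complement (chr9:67815544-67827509), had 1.31, 13.8, 2.89 and 2.13 CPM in LE and 31.6, 162, 8.71 and 55.2 CPM in S (-3.59 ± 0.52, adjusted p = 0.00322). C4BPA is annotated as 2 neighbouring genes of that symbol, and the other one was not called. EPHA3, an ephrin receptor (chr13:166592492-166942791), had 1.31, 1.73, 0.481 and 3.72 CPM in LE and 19.6, 23.9, 4.01 and 40.7 CPM in S (-3.58 ± 0.27, adjusted p = 0.000857). S varied widely among gilts in these 3 genes, and only in C4BPA did the groups overlap, by LE of gilt C42 and S of gilt C78.

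The other 6 of the 12 widest named differences in favour of S were FCGR2B, an inhibitory Fc receptor of B cells and macrophages, CPAMD8, KCNQ5, NDNF, GFPT2 and RIPOR3. FCGR2B had 1.09, 3.46, 2.89 and 2.13 CPM in LE and 29.9, 49.2, 23.9 and 21.1 CPM in S (-3.68 ± 0.33, adjusted p = 0.00105). CPAMD8, of the alpha-2-macroglobulin family, had 3.48, 7.2, 5.29 and 8.78 CPM in LE and 64.0, 96.2, 61.3 and 86.2 CPM in S (-3.67 ± 0.21, adjusted p = 0.000778), and KCNQ5, a potassium channel, had 2.39, 16.7, 3.85 and 1.33 CPM in LE and 45, 86.7, 66.6 and 29.2 CPM in S (-3.65 ± 0.40, adjusted p = 0.00147). NDNF, a secreted neurotrophic factor, had 0.871, 2.30, 3.13 and 10.6 CPM in LE and 30.7, 106, 14.3 and 55.4 CPM in S (-3.59 ± 0.65, adjusted p = 0.0067). GFPT2, which starts hexosamine synthesis, had 11.3, 9.79, 10.8 and 11.4 CPM in LE and 157, 301, 68.7 and 90.1 CPM in S (-3.58 ± 0.41, adjusted p = 0.00167), and RIPOR3 had 5.01, 8.07, 22.1 and 7.45 CPM in LE and 133, 188, 46.0 and 110.0 CPM in S (-3.56 ± 0.69, adjusted p = 0.00838). None of the 6 overlapped between LE and S.

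**Figure D4:**
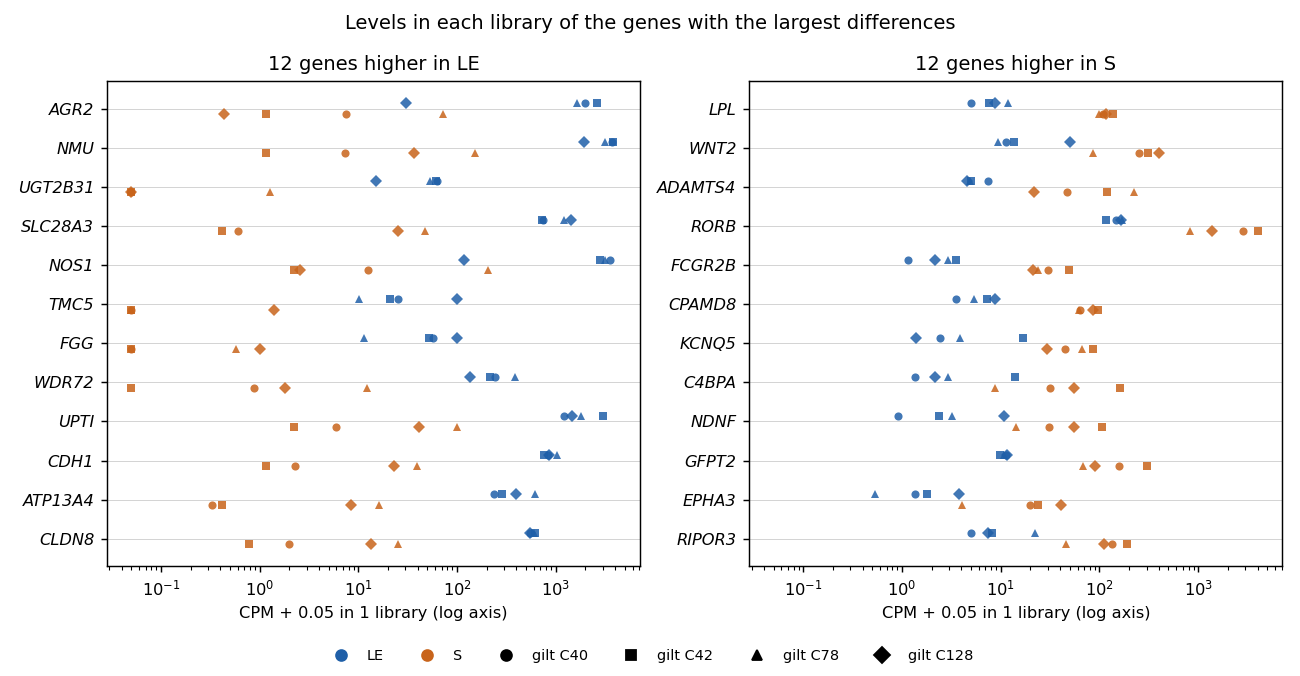
CPM + 0.05 in each library (log axis) of the 12 named genes with the widest differences in favour of LE (left) and of S (right), with LE in blue, S in orange and the gilt shown by the shape of the point. On the left, S of gilts C78 and C128 often lies far above S of gilts C40 and C42, and AGR2 and NOS1 are low in LE of gilt C128, with 30.3 and 118 CPM.

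The widest differences of all in favour of S belonged to immunoglobulin genes, which have symbols without a name and were singled out after their values had been seen. LOC102167964, annotated as an immunoglobulin lambda variable chain, had 0.218, 0, 0.240 and 0 CPM in LE and 27.7, 189.9, 0.697 and 30.2 CPM in S, a ratio of pooled counts of 360 (95% interval 99.5 to 2980). LOC396781, an IgG heavy chain, had 0.218, 0, 0.240 and 1.86 CPM in LE and 30.5, 427, 0.523 and 25.2 CPM in S (-6.61 ± 1.27, adjusted p = 0.0082). S of gilt C42 was the highest library and S of gilt C78 was close to LE in both genes. JCHAIN, which joins immunoglobulin chains of plasma cells, had 1.96, 0.864, 5.05 and 6.65 CPM in LE and 305, 889, 8.19 and 374 CPM in S and was not called (-5.97 ± 1.53, adjusted p = 0.0223). The summed leukocyte markers were lowest in S of gilt C78, with 585 CPM, and highest in S of gilt C42, with 1639 CPM.

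Collagens and other matrix genes, which fibroblasts secrete to build the tissue between the cells, had the highest share of members higher in S among the 30 lists. Of 58 tested collagens and matrix genes 39 were higher in S and none in LE, a share of 67.2% against 10.8% of all genes, with a median log2 difference of -2.16. COL3A1, a fibrillar collagen (gene 100152001, chr15:93556914-93595678), had the highest level per kilobase of exon among the genes at least 4-fold higher in S, with 4115, 6217, 1662 and 6449 CPM in LE and 42284, 55237, 15297 and 32519 CPM in S (-3.01 ± 0.27, adjusted p = 0.00105). COL1A1 had 2025, 2433, 1297 and 2951 CPM in LE and 14738, 17583, 7964 and 18724 CPM in S (-2.75 ± 0.19, adjusted p = 0.000826), and COL1A2 had 2219, 3095, 876 and 3301 CPM in LE and 18085, 21745, 8591 and 18248 CPM in S (-2.90 ± 0.23, adjusted p = 0.00088). None of the 3 collagens overlapped between LE and S, and gilt C78 had the lowest value in both compartments. The proteoglycans DCN and LUM, which order collagen fibrils, had 498 ± 225 and 543 ± 281 CPM in LE and 3195 ± 1563 and 3131 ± 1244 CPM in S (-2.73 ± 0.29 and -2.71 ± 0.35, adjusted p = 0.00134 and 0.00228). MATN2, a matrilin, had the widest difference of the called members (-3.16 ± 0.22, adjusted p = 0.000826), and ECM1 the smallest (-1.01 ± 0.16, adjusted p = 0.0044). Per kilobase of exon, COL3A1 with 7620.5 CPM per kb in S was followed by COL1A2 with 3278, COL1A1 with 2403, DCN with 2153, the collagen-binding SPARC with 1777, LUM with 1615, MMP2 with 639 and the growth factor PTN with 447. FN1, fibronectin, had 530.5 ± 195 CPM in LE and 1996 ± 798 CPM in S and was not called (-1.86 ± 0.40, adjusted p = 0.0122). MFAP5, a protein of microfibrils, went the other way without being called, with 264, 534, 444 and 10.6 CPM in LE and 46.1, 73.5, 24.4 and 56.6 CPM in S (2.21 ± 1.14, adjusted p = 0.161).

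Basement membrane genes leaned to S, with 11 of 30 tested members higher in S and 4 in LE. The shares were 36.7% and 13.3%, against 10.8% and 13.5% of all genes, so the LE share was that of all genes. COL17A1, the transmembrane collagen of hemidesmosomes, had 53.5, 22.8, 12.3 and 1.6 CPM in LE and 0.559, 0.367, 0.349 and 0.194 CPM in S (5.51 ± 0.49, adjusted p = 0.00103). LE was above S in every library of this gene. NPNT, a ligand of integrins (2.65 ± 0.21, adjusted p = 0.00089), and NTN4 were also among the members higher in LE. The collagen COL4A1 (579 ± 227 CPM in LE and 2412 ± 140.2 CPM in S, -2.16 ± 0.27, adjusted p = 0.00219) and the laminin chains LAMA2 (-2.42 ± 0.38, adjusted p = 0.0044) and LAMB1 (-2.33 ± 0.32, adjusted p = 0.00269) were higher in S.

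Of 38 tested matrix proteases and their inhibitors 19 were higher in S, and MMP8, the neutrophil collagenase, was the 1 member higher in LE. The shares were 50% in S and 2.63% in LE, against 10.8% and 13.5% of all genes. MMP8 had 155, 380.0, 388 and 124 CPM in LE and 1.12, 0.367, 15.3 and 5.62 CPM in S (5.75 ± 0.78, adjusted p = 0.00262), and MMP2, a gelatinase, had 272, 356, 141 and 265 CPM in LE and 2573, 2815, 1356 and 1128 CPM in S (-2.90 ± 0.26, adjusted p = 0.00107). The 2 proteases had opposite sides, and neither overlapped. The membrane-bound MMP16 (-3.10 ± 0.44, adjusted p = 0.00307) and TIMP1 (-2.83 ± 0.20, adjusted p = 0.000826) were also higher in S. TIMP2 (710.5 ± 413 CPM in LE and 447 ± 194 CPM in S, adjusted p = 0.482) and TIMP3 (668 ± 318 and 735 ± 223 CPM, adjusted p = 0.723) were not called.

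Lineage transcription factors fell on both sides. Of 61 tested, 11 were higher in LE (18%, against 13.5% of all genes) and 21 in S (34.4%, against 10.8%), with a median of -1.65. KLF5, a factor of proliferating and secretory epithelia, had 231, 194, 329 and 111 CPM in LE and 0.559, 0.367, 17.4 and 3.68 CPM in S (5.80 ± 0.79, adjusted p = 0.00265). PAX2, a factor of the Müllerian duct, had 236, 281, 244 and 367 CPM in LE and 1.96, 0, 16.2 and 13.6 CPM in S (5.56 ± 0.86, adjusted p = 0.00393). EHF (5.62 ± 0.57, adjusted p = 0.00126), TFCP2L1 (5.29 ± 0.43, adjusted p = 0.000891), SOX17 (3.13 ± 0.55, adjusted p = 0.00612) and MSX1 (3.61 ± 0.48, adjusted p = 0.00255) were higher in LE too. The repressors of epithelial genes lay on the other side. SNAI1 had 0.653, 0.576, 0.240 and 0 CPM in LE and 7.26, 1.84, 11.2 and 4.65 CPM in S (-3.93 ± 0.74, adjusted p = 0.00786), ZEB1 had 109, 122, 29.1 and 84.9 CPM in LE and 483, 522, 305 and 267 CPM in S (-2.30 ± 0.31, adjusted p = 0.00254) and ZEB2 had 92.9, 84.4, 27.2 and 102 CPM in LE and 369.9, 294, 262 and 359 CPM in S (-2.20 ± 0.29, adjusted p = 0.00249). All 3 were higher in S in every gilt without overlap, and SNAI2 just missed the limit (-2.31 ± 0.48, adjusted p = 0.0107). The fibroblast factors TCF21 (-3.43 ± 0.35, adjusted p = 0.00126), PRRX1 (-3.04 ± 0.20, adjusted p = 0.000826) and TWIST2 (-2.68 ± 0.29, adjusted p = 0.00144) and the positional factors HOXA10 (-2.42 ± 0.21, adjusted p = 0.00101) and HOXA11 (-2.45 ± 0.29, adjusted p = 0.0018) were higher in S.

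Among steroid and other nuclear receptors 6 of 33 were higher in LE and 5 in S, shares of 18.2% and 15.2% that lie near the 13.5% and 10.8% of all genes. PGR, the progesterone receptor, had 62.0, 67.7, 49.3 and 63.6 CPM in LE and 256, 180.0, 224 and 158 CPM in S (-1.74 ± 0.21, adjusted p = 0.00187), 3.34-fold more in S and without overlap. The membrane progesterone receptor PAQR5 had 31.3, 21.3, 97.4 and 3.46 CPM in LE and 0.559, 0.367, 2.79 and 1.36 CPM in S (4.46 ± 0.72, adjusted p = 0.00464) and PGRMC1 had 387, 450.3, 459.6 and 795 CPM in LE and 43.9, 63.9, 82.4 and 113 CPM in S (2.81 ± 0.18, adjusted p = 0.000778). The other membrane receptors named for progesterone were not called, namely PAQR7 (-0.56 ± 0.36, adjusted p = 0.247), PAQR8 (0.63 ± 0.33, adjusted p = 0.166) and PGRMC2 (0.20 ± 0.29, adjusted p = 0.595). ESR1, the estrogen receptor alpha, had 425, 315, 509.8 and 299 CPM in LE and 277, 218, 291 and 351 CPM in S (0.43 ± 0.21, adjusted p = 0.144). The glucocorticoid receptor NR3C1 had 120.3 ± 48.6 CPM in LE and 116 ± 15.2 CPM in S and was not called (adjusted p = 0.923). HNF4G, a factor of digestive epithelia, had the widest difference of the list (5.48 ± 0.70, adjusted p = 0.00223).

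Of 20 tested FGF genes 4 were higher in LE and 3 in S, shares of 20% and 15% that lie near the 13.5% and 10.8% of all genes. The ligand FGF10 had 37.2, 21.9, 11.8 and 22.9 CPM in LE and 182, 162, 136 and 41.4 CPM in S (-2.40 ± 0.44, adjusted p = 0.00732), and FGFR2, a gene whose epithelial form binds FGF7 and FGF10, had 134, 135, 208 and 161 CPM in LE and 0.279, 1.47, 13.9 and 5.04 CPM in S (5.35 ± 0.64, adjusted p = 0.00187). Neither overlapped, with the ligand on the side of S and the receptor on the side of LE. Counts per gene do not separate the forms of FGFR2. FGFBP1, which releases FGFs from the matrix, had 12.6, 22.8, 8.18 and 50.8 CPM in LE and 0, 0, 0 and 1.16 CPM in S (6.27 ± 0.59, adjusted p = 0.00113). FGFR1 (-2.43 ± 0.26, adjusted p = 0.00137) and FGF2 (-2.44 ± 0.47, adjusted p = 0.00825) were higher in S and FGFR3 (3.40 ± 0.64, adjusted p = 0.00766) in LE. FGF7, known in the pig as a growth factor of the LE, had 898, 746, 1242 and 4.52 CPM in LE and 21.0, 47.4, 87.7 and 12.6 CPM in S and was not called (3.43 ± 1.18, adjusted p = 0.0577), with LE of gilt C128 lower than all 4 S libraries while the other 3 LE libraries were far above them. FGF9 had 1 count in S and a ratio of pooled counts of 43.1 in favour of LE (95% interval 7.30 to 1740).

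Of 13 tested members of the EGF and HGF axes 7 were higher in LE (53.8%, against 13.5% of all genes) and 1 in S (7.69%, against 10.8%). EGF had 62.5, 85, 49.8 and 115 CPM in LE and 5.87, 10.7, 5.40 and 6.20 CPM in S (3.46 ± 0.25, adjusted p = 0.000856), and the HGF receptor MET had 482, 549, 1055 and 139.4 CPM in LE and 26.3, 15.8, 67.3 and 40.5 CPM in S (3.79 ± 0.58, adjusted p = 0.00381), without overlap in either. HGF itself had 9.30 ± 3.58 CPM in LE and 25.6 ± 14.1 CPM in S and was not called (-1.35 ± 0.53, adjusted p = 0.0824). ERBB3 (3.39 ± 0.65, adjusted p = 0.00817) and ERBB4 (3.78 ± 0.70, adjusted p = 0.00752), receptors of neuregulins, were higher in LE, and the neuregulin NRG2 was the member higher in S (6.75, 11.2, 4.57 and 6.92 CPM in LE and 57.3, 24.6, 38.9 and 21.5 CPM in S, -2.23 ± 0.40, adjusted p = 0.00681). NRG1 had 26.2 ± 12.7 CPM in LE and 123 ± 55.1 CPM in S, with an adjusted p of 0.0105 just over the limit.

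The PDGF receptor PDGFRA, which marks fibroblasts, had 409.7, 479, 196 and 339.7 CPM in LE and 2401, 2933, 1903 and 1039.7 CPM in S (-2.52 ± 0.30, adjusted p = 0.00181), and its ligand PDGFC had 76.4, 56.8, 148 and 34.3 CPM in LE and 30.5, 10.7, 38.9 and 19.9 CPM in S (1.59 ± 0.29, adjusted p = 0.00655). The receptor was higher in S in every library, and LE of gilt C128 overlapped S for the ligand. VEGFA, the main growth factor of vessels, was higher in LE (117, 132, 126 and 40.7 CPM in LE and 38.6, 56.6, 35.4 and 25.4 CPM in S, 1.34 ± 0.23, adjusted p = 0.00518), with LE of gilt C128 above S of the same gilt but within the range of S, whereas its relatives PGF (-3.36 ± 0.66, adjusted p = 0.00895) and VEGFD (-2.69 ± 0.25, adjusted p = 0.00111) were higher in S. In all, 2 of 20 members of the PDGF, VEGF and KIT axes were higher in LE and 7 in S. Those shares were 10% and 35%, against 13.5% and 10.8% of all genes. The receptor KDR was not called (151 ± 119.7 and 265 ± 178 CPM, adjusted p = 0.474).

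IGF genes were S genes where called, with 4 of 11 higher in S (36.4%, against 10.8% of all genes) and none in LE (against 13.5%). IGF1 had 792, 922, 127 and 427 CPM in LE and 3973, 5079.6, 2495 and 1784 CPM in S (-2.76 ± 0.42, adjusted p = 0.00377), and IGF2 had 7.4, 21.3, 8.90 and 37.0 CPM in LE and 70.1, 107, 119.6 and 67.8 CPM in S (-2.52 ± 0.49, adjusted p = 0.00896), with no overlap in either ligand. The binding protein IGFBP6 had the widest difference of the list (-4.04 ± 0.48, adjusted p = 0.00177). The receptor IGF1R had 515, 362, 662 and 192 CPM in LE and 179, 95.9, 224 and 148 CPM in S and an adjusted p of 0.0106, just over the limit (1.35 ± 0.28).

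No hedgehog gene of 13 tested was higher in LE (against 13.5% of all genes) and 5 were higher in S (38.5%, against 10.8%). SMO, which carries the signal across the membrane, had 5.22, 8.07, 4.33 and 13.0 CPM in LE and 36.0, 37.8, 36.4 and 57.5 CPM in S (-2.53 ± 0.23, adjusted p = 0.00109), and the transcription factors GLI2 (8.33 ± 1.10 and 43.3 ± 5.94 CPM, -2.37 ± 0.17, adjusted p = 0.000832) and GLI3 (-1.99 ± 0.32, adjusted p = 0.00449) went with it. NR2F2, a stromal target of epithelial hedgehog, had 161, 159, 56.0 and 157 CPM in LE and 679, 561, 559 and 499 CPM in S (-2.21 ± 0.31, adjusted p = 0.003), and both SMO and NR2F2 were higher in S without overlap. HAND2 (7.31 ± 4.65 and 19.1 ± 3.83 CPM, -1.58 ± 0.51, adjusted p = 0.0479) and the receptor PTCH1 (98.2 ± 43.2 and 107 ± 115 CPM, adjusted p = 0.659) were not called, and the epithelial ligand IHH was not among the genes tested.

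WNT genes had members at both ends of the scale, with 9 of 38 higher in LE and 6 in S. These shares were 23.7% and 15.8%, against 13.5% and 10.8% of all genes. WNT7A, the WNT ligand of uterine epithelium, had 5.66, 8.64, 7.21 and 122 CPM in LE and 0, 0, 0.174 and 2.13 CPM in S (5.87 ± 0.40, adjusted p = 0.000826). WNT2B had 0, 0, 0 and 1.06 CPM in LE and 3.63, 6.24, 1.05 and 35.4 CPM in S (-5.45 ± 0.59, adjusted p = 0.00145). WNT7A was highest in LE of gilt C128 and WNT2B in S of gilt C128, and for WNT2B S of gilt C78 was level with LE of gilt C128. The receptor FZD5 had 233, 293, 556 and 352 CPM in LE and 6.15, 5.14, 27.0 and 31.0 CPM in S (4.64 ± 0.42, adjusted p = 0.00109), and the R-spondin receptors LGR4 (628 ± 186 and 52.4 ± 10.03 CPM, 3.55 ± 0.33, adjusted p = 0.00111) and LGR5 (65.1, 8.64, 16.1 and 5.59 CPM in LE and 0.279, 0, 0.697 and 0 CPM in S, 6.05 ± 0.63, adjusted p = 0.00134) were also higher in LE without overlap. WLS, which every secreted WNT needs for release, had 554 ± 117 CPM in LE and 52.6 ± 13.3 CPM in S (3.41 ± 0.22, adjusted p = 0.000806). The inhibitor DKK1 was higher in S (58.8, 99.96, 36.3 and 37.5 CPM in LE and 471, 296, 393 and 97.0 CPM in S, -2.34 ± 0.41, adjusted p = 0.0061), with LE of gilt C42 and S of gilt C128 at about the same level, and WNT5A, with 183 ± 127 and 195 ± 59.0 CPM, was not called (adjusted p = 0.615).

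In the TGF-beta and BMP axis 12 of 40 tested genes were higher in S (30%, against 10.8% of all genes). The 6 higher in LE were a share of 15%, near the 13.5% of all genes. The ligands BMP4 (10.01, 6.34, 11.5 and 11.4 CPM in LE and 76.5, 122, 30.7 and 52.1 CPM in S, -2.66 ± 0.46, adjusted p = 0.00603), BMP2 (-1.87 ± 0.34, adjusted p = 0.00692), GDF7 (-2.66 ± 0.21, adjusted p = 0.000857) and TGFB3 (-2.90 ± 0.32, adjusted p = 0.00145) and the activin inhibitor FST (-2.47 ± 0.41, adjusted p = 0.0051) were higher in S. The BMP receptor BMPR1B (251, 127.6, 240.5 and 88.6 CPM in LE and 1.68, 6.61, 11.9 and 11.6 CPM in S, 4.46 ± 0.64, adjusted p = 0.00327), the stress-induced ligand GDF15 (4.72 ± 0.55, adjusted p = 0.00176) and the BMP targets ID2 (3.14 ± 0.41, adjusted p = 0.00241) and ID4 (2.95 ± 0.59, adjusted p = 0.00948) were higher in LE. Other BMP targets were not called, namely ID1 (-0.51 ± 1.06, adjusted p = 0.717), ID3 (-1.74 ± 0.97, adjusted p = 0.189), SMAD6 (-0.64 ± 0.73, adjusted p = 0.505) and SMAD7 (-1.20 ± 0.59, adjusted p = 0.147). Neither BMP4 nor BMPR1B overlapped. Of 15 NOTCH genes only LFNG was called, higher in S (-2.04 ± 0.33, adjusted p = 0.00472), a share of 6.67% against 10.8% of all genes.

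**Figure D5:**
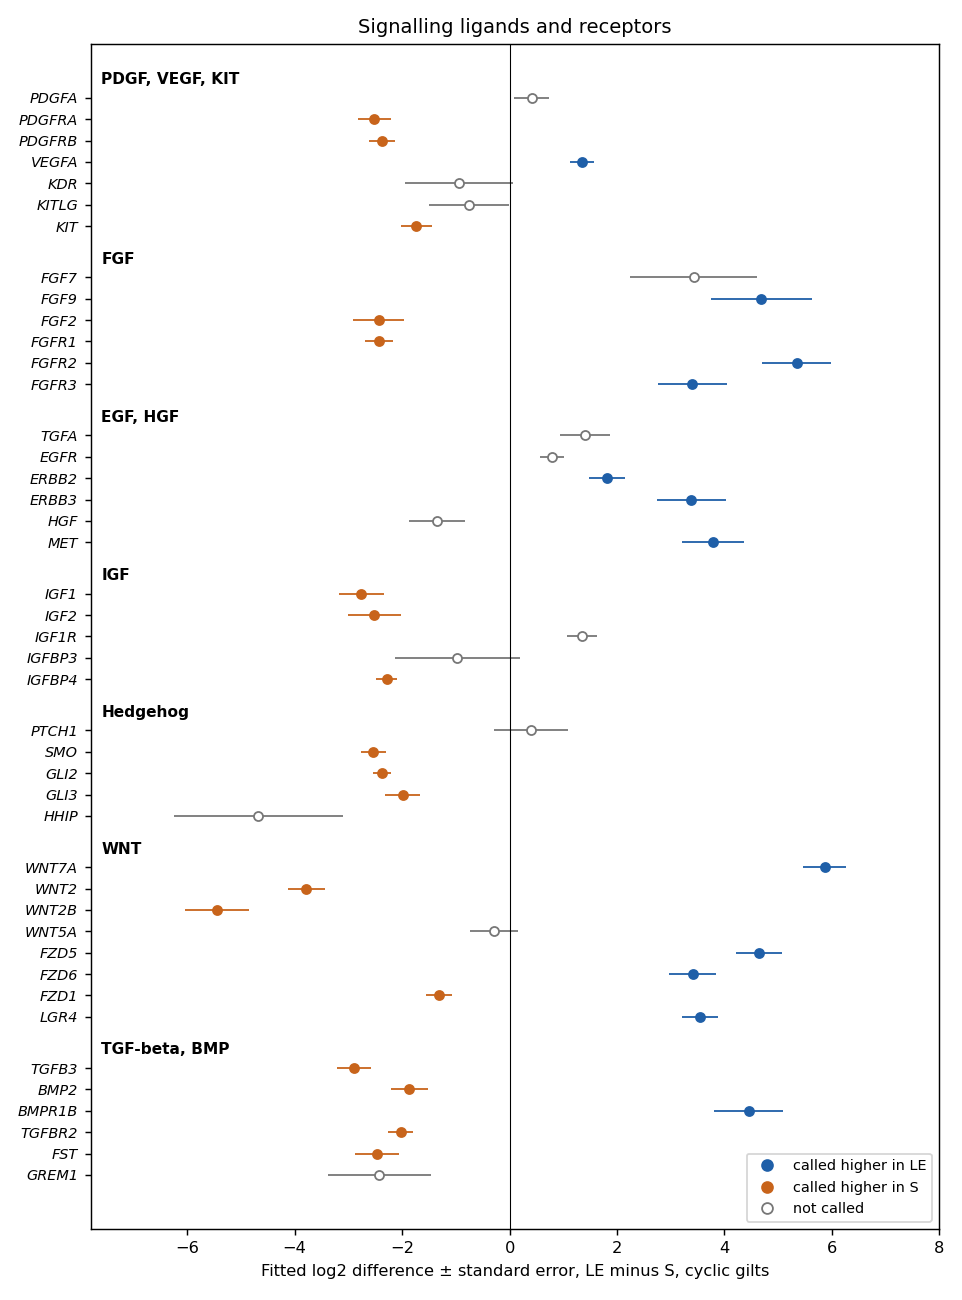
Fitted log2 difference between LE and S (LE minus S, points) for ligands and receptors of 7 signalling axes in 4 cyclic gilts. Lines give the standard error, worked back from the test. FGFR2, MET, FZD5 and BMPR1B lie on the LE side and FGF2, IGF1, WNT2, BMP2 and SMO on the S side, and open circles such as FGF7 and HGF were not called.

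Cytokine and immune genes were found on both sides. Of 17 tested genes in a list of the IL6 and IL1 families that also holds IL24, IL20RB and IL10RB, 5 were higher in LE and 4 in S. The shares were 29.4% and 23.5%, against 13.5% and 10.8% of all genes. IL24 had 72.7, 74.9, 8.90 and 101 CPM in LE and 0, 0.735, 1.39 and 2.91 CPM in S (5.28 ± 0.79, adjusted p = 0.00368), IL1A had 52.7, 50.4, 54.8 and 2.13 CPM in LE and 0, 2.20, 5.58 and 0.194 CPM in S (4.44 ± 0.72, adjusted p = 0.00458) and the receptor subunit IL1RAP had 495, 577, 496 and 115 CPM in LE and 9.50, 13.2, 31.5 and 9.88 CPM in S (4.64 ± 0.45, adjusted p = 0.00119). IL24 was lowest in LE of gilt C78 and IL1A in LE of gilt C128, where it fell within the range of S. IL33, an alarmin of stromal and vascular cells (-2.48 ± 0.31, adjusted p = 0.00204), and the receptors IL6ST (-1.62 ± 0.17, adjusted p = 0.00136) and OSMR (-1.97 ± 0.21, adjusted p = 0.00143) were higher in S, while LIF was not called (5.01, 2.88, 48.3 and 0 CPM in LE and 0.279, 1.47, 5.40 and 2.91 CPM in S, adjusted p = 0.322).

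Of 14 chemokine genes 1 was higher in LE (7.14%, against 13.5% of all genes) and 4 in S (28.6%, against 10.8%). CXCL16, a membrane-bound chemokine, had 197, 318, 179 and 173 CPM in LE and 8.10, 10.3, 18.5 and 8.91 CPM in S (4.25 ± 0.32, adjusted p = 0.000857). CCL2, which attracts monocytes, had 1.54 ± 0.973 and 11.07 ± 3.27 CPM (-2.89 ± 0.56, adjusted p = 0.00832), and CCL19 had 3 counts in LE and 84 in S, a ratio of 26.0 (95% interval 8.6 to 129). ACKR1, a chemokine-binding protein of venules and red cells, was higher in S (-4.14 ± 0.76, adjusted p = 0.00709). Of 28 secreted antimicrobial and immune genes 4 were higher in LE and 9 in S, shares of 14.3% and 32.1% against 13.5% and 10.8% of all genes. PIGR, which carries IgA across epithelium into the lumen, had 104, 148, 85.1 and 158 CPM in LE and 2.23, 4.41, 4.88 and 4.65 CPM in S (4.90 ± 0.28, adjusted p = 0.000778), without overlap. DEFB1, a defensin (24.2, 28.8, 12 and 149 CPM in LE and 0, 0, 0.697 and 3.49 CPM in S, 5.58 ± 0.58, adjusted p = 0.00129), and S100A2 (271, 297, 200.1 and 10.4 CPM in LE and 3.07, 0.367, 14.8 and 0.194 CPM in S, 5.74 ± 0.82, adjusted p = 0.00312) were also higher in LE, with gilt C128 the highest LE library in the former and the lowest in the latter. The complement genes C1S (59.1 ± 15.9 CPM in LE and 514 ± 313 CPM in S, -2.98 ± 0.26, adjusted p = 0.000955) and C7 (-3.09 ± 0.29, adjusted p = 0.00113) were higher in S.

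The prostaglandin pathway, which makes and clears the signals that end or keep the corpus luteum, had 8 of 18 tested genes higher in LE and 3 higher in S. The shares were 44.4% and 16.7%, against 13.5% and 10.8% of all genes. PTGS2, the inducible cyclooxygenase, had 639, 644, 849 and 70.8 CPM in LE and 5.59, 2.20, 48.6 and 1.94 CPM in S (5.91 ± 0.72, adjusted p = 0.00195), and PLA2G4A, which releases arachidonic acid, had 289, 223, 359 and 152 CPM in LE and 12, 11, 29.98 and 17.4 CPM in S (3.88 ± 0.30, adjusted p = 0.000857). LE lay above S in every library of both, although gilt C128 was the lowest LE library. These 2 genes overlap on chromosome 9 on opposite strands, and whether reads were counted by strand is not given in the sources used here. PTGES, the prostaglandin E synthase, had 20.5, 19.6, 16.8 and 70.8 CPM in LE and 2.79, 1.10, 3.66 and 2.71 CPM in S (3.40 ± 0.47, adjusted p = 0.00289), and HPGD, which inactivates prostaglandins, had 1219, 738, 375 and 757 CPM in LE and 103, 20.9, 103 and 66.2 CPM in S (3.50 ± 0.54, adjusted p = 0.00397). PTGIS, the prostacyclin synthase of vessels, was higher in S (27.0, 33.4, 19.2 and 36.7 CPM in LE and 175, 179, 147 and 215 CPM in S, -2.65 ± 0.16, adjusted p = 0.000778). The exporter ABCC4 was higher in LE (2.31 ± 0.34, adjusted p = 0.00345) and the importer SLCO2A1 in S (-1.5 ± 0.26, adjusted p = 0.0055). AKR1B1, named as a prostaglandin F synthase, had 66.2 ± 54.7 CPM in LE and 19.2 ± 3.13 CPM in S and was not called (1.43 ± 0.43, adjusted p = 0.039). OXTR, the oxytocin receptor, had 384, 202, 9.62 and 2.39 CPM in LE and 12, 18.7, 6.10 and 21.5 CPM in S (adjusted p = 0.318), high in LE of gilts C40 and C42, within the range of S in LE of gilt C78 and below it in LE of gilt C128.

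Among steroid-converting enzymes 4 of 11 were higher in LE (36.4%, against 13.5% of all genes) and 1 in S (9.09%, against 10.8%). HSD17B2, which inactivates estradiol, had 30.7, 36.6, 64.5 and 27.7 CPM in LE and 0.279, 0, 1.39 and 0.194 CPM in S (6.30 ± 0.45, adjusted p = 0.000832), and SRD5A1, a 5α-reductase, had 166, 233, 164 and 45.5 CPM in LE and 7.82, 5.14, 13.6 and 7.94 CPM in S (3.94 ± 0.49, adjusted p = 0.00203), both without overlap. HSD11B1, which activates cortisol, was higher in S (-2.35 ± 0.37, adjusted p = 0.00432). Of 15 retinoid genes 6 were higher in LE (40%) and 2 in S (13.3%), the latter near the 10.8% of all genes. CYP26A1, which degrades retinoic acid, had 98.0, 329, 324 and 495 CPM in LE and 0.279, 0, 12.9 and 12.2 CPM in S (6.05 ± 0.82, adjusted p = 0.00269), and RBP4, the retinol carrier, had 557, 912, 1826 and 7.18 CPM in LE and 3.35, 8.45, 64.3 and 2.71 CPM in S (5.33 ± 1.04, adjusted p = 0.00886). LE of gilt C128 was within the range of S for RBP4 and the highest LE library for CYP26A1. CRABP1, a retinoic acid binding protein, was higher in S (-3.73 ± 0.55, adjusted p = 0.00357), and ALDH1A2, which makes retinoic acid, had 94.9 ± 50.6 CPM in LE and 307 ± 114 CPM in S and was not called (-1.80 ± 0.50, adjusted p = 0.0281).

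Ion and water transport formed a large LE group, with 23 of 49 tested genes higher in LE (46.9%, against 13.5% of all genes) and 2 in S, and a median log2 difference of 1.67. The 3 subunits SCNN1A, SCNN1B and SCNN1G of the epithelial sodium channel were higher in LE. SCNN1A had 138, 119.8, 97.2 and 384 CPM in LE and 1.12, 0.367, 4.71 and 13.4 CPM in S (5.46 ± 0.56, adjusted p = 0.00129), SCNN1B had 68.6, 68.0, 77.2 and 17.0 CPM in LE and 0, 1.47, 2.44 and 0.968 CPM in S (5.41 ± 0.59, adjusted p = 0.00146) and SCNN1G had 26.8, 40.9, 31.7 and 15.4 CPM in LE and 0.279, 0, 1.39 and 0.387 CPM in S (5.52 ± 0.55, adjusted p = 0.00125). LE and S did not overlap in any of them, and gilt C128 had the highest LE level of SCNN1A and the lowest of the other 2 subunits. The anion exchanger SLC26A4, or pendrin, had 4.14, 2.59, 1.44 and 1336 CPM in LE and 0, 0, 0.349 and 27.1 CPM in S (5.25 ± 0.63, adjusted p = 0.00184), almost all of it in gilt C128, whose S library lay above the other 3 LE libraries. TRPV6, a calcium channel of absorptive epithelia (43.1, 48.7, 113 and 54.8 CPM in LE and 0.559, 0, 5.93 and 0.968 CPM in S, 5.38 ± 0.53, adjusted p = 0.00125), and its intracellular partner S100G, or calbindin D9k (15.5, 10.9, 27.4 and 4.26 CPM in LE and 0, 0, 1.57 and 0 CPM in S, 5.25 ± 0.71, adjusted p = 0.00263), were higher in LE without overlap. The proton pump subunit ATP6V1B1 (5.47 ± 0.45, adjusted p = 0.000891), CA8 of the carbonic anhydrase family (5.5 ± 0.68, adjusted p = 0.00201), the sodium pump subunit ATP1B1 (4.49 ± 0.38, adjusted p = 0.000899) and the chloride channel CFTR (4.14 ± 0.48, adjusted p = 0.0017) went the same way. The water channel AQP1, known from vessels, was higher in S (6.75, 6.34, 12.7 and 19.95 CPM in LE and 35.8, 50.3, 30.5 and 215 CPM in S, -2.53 ± 0.38, adjusted p = 0.00375).

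Glucose and amino acid transporters were divided, with 7 of 32 higher in LE and 10 in S. The shares were 21.9% and 31.2%, against 13.5% and 10.8% of all genes. The cystine and dibasic amino acid transporter SLC7A9 had 82.3, 112, 74.3 and 3.19 CPM in LE and 1.12, 0, 2.96 and 0.387 CPM in S (5.59 ± 0.71, adjusted p = 0.00219). The sodium-glucose transporter SLC5A1 had 59.0, 72.0, 59.4 and 452 CPM in LE and 4.19, 6.24, 5.58 and 11.4 CPM in S (4.06 ± 0.38, adjusted p = 0.00113), and SLC2A13, a proton-coupled inositol transporter, had 2002, 1308, 1891 and 290.0 CPM in LE and 73.5, 62.8, 129 and 55.8 CPM in S (3.87 ± 0.44, adjusted p = 0.00168). The glutamate transporter SLC1A3 was higher in S (29.6, 16.7, 36.3 and 21.3 CPM in LE and 287, 223, 130.2 and 75.0 CPM in S, -2.66 ± 0.40, adjusted p = 0.00359), as was SLC7A8, a transporter of neutral amino acids (-2.39 ± 0.25, adjusted p = 0.00134). None of the 4 genes given by library overlapped between LE and S, although LE of gilt C128 was close to S of gilt C78 for SLC7A9. SLC2A1, the common glucose transporter, had 97.3 ± 13.2 CPM in LE and 38.5 ± 32.4 CPM in S and was not called (1.76 ± 0.51, adjusted p = 0.0335).

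Cholesterol synthesis and uptake was the metabolic group with the highest share, 24 of 32 tested genes higher in LE (75.0%, against 13.5% of all genes) and none in S. The median log2 difference of this list was 2.76. HMGCS1, an early enzyme of the mevalonate pathway, had 383, 428, 430.5 and 484 CPM in LE and 50.6, 48.5, 79.5 and 69.7 CPM in S (2.82 ± 0.18, adjusted p = 0.000799). FDPS had 877, 737, 979 and 1826 CPM in LE and 18.4, 6.61, 76.7 and 75.5 CPM in S (5.07 ± 0.56, adjusted p = 0.00148), and SQLE, squalene epoxidase, had 162, 211, 240.5 and 137 CPM in LE and 5.31, 8.08, 15.2 and 9.88 CPM in S (4.31 ± 0.26, adjusted p = 0.000778). In these 3 enzymes each LE library was above each S library. FDFT1 (4.22 ± 0.36, adjusted p = 0.000927) and the regulator SREBF2 (1.71 ± 0.24, adjusted p = 0.00304) were higher in LE too.

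The promoter of HMGCS1 is shown for the sterol regulatory element, the site through which SREBF2 is known to act, searched as TCACNCCAC on both strands and set in capitals. The window is as above.
HMGCS1 (chr16:27957212-27957511, minus strand): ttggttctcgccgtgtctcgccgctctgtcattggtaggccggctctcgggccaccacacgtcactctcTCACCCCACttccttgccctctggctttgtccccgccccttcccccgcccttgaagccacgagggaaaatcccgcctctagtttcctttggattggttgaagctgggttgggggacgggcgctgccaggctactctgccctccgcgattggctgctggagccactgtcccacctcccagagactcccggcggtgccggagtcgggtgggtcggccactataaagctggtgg
The match begins at -181. Of the 32 promoters of the list 4 held the element (12.5%), among them HMGCS1 and SREBF2, against 0.880% of all 12953 promoters, 1.18% of those of genes at least 4-fold higher in LE and 1.18% of those at least 4-fold higher in S. The E-box and this element share bases in 2 promoters. Of the 4 genes with the element, 3 were higher in LE and the other was not called.

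Respiratory chain genes were higher in LE by smaller amounts. Of 64 tested, 35 were higher in LE (54.7%, against 13.5% of all genes) and none in S. A positive difference was found in 63, with a median of 1.07 on the log2 scale. NDUFC2 of complex I had the widest difference (104, 99.96, 54.4 and 135 CPM in LE and 21.8, 18.0, 19.5 and 24.8 CPM in S, 2.16 ± 0.22, adjusted p = 0.00129). COX5B of complex IV had 112 ± 44.4 CPM in LE and 34.7 ± 4.88 CPM in S (1.63 ± 0.19, adjusted p = 0.0017), and the ATP synthase genes ATP5A1 (1.32 ± 0.15, adjusted p = 0.00175) and ATP5B (1.31 ± 0.16, adjusted p = 0.0018) differed by similar amounts. Called members of the list lay between 0.789 and 2.16, so none but NDUFC2 reached 4-fold.

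Of the tested motile cilia genes 23.1% were higher in LE and 7.69% in S, against 13.5% and 10.8% of all genes. Of the cell cycle genes the shares were 0% and 7.69%. Of 13 cilia genes 3 were higher in LE, HYDIN (10.7, 27.1, 80.3 and 61.7 CPM in LE and 2.79, 1.47, 1.92 and 8.91 CPM in S, 3.52 ± 0.58, adjusted p = 0.00489), DNAH5 (3.45 ± 0.61, adjusted p = 0.00618) and CFAP44 (3.24 ± 0.40, adjusted p = 0.00193), and TPPP3 was higher in S (-2.13 ± 0.35, adjusted p = 0.00502). The 3 genes higher in LE were all lower in LE than in glandular epithelium (GE) of the same gilts, where HYDIN had 349 ± 114 CPM in a joint normalisation of the 16 cyclic libraries (log2 difference LE minus GE -3.10 ± 0.58, adjusted p = 0.00123). Of 26 cell cycle genes 2 were higher in S, CCND2 (11 ± 4.36 CPM in LE and 52.6 ± 19.7 CPM in S, -2.27 ± 0.19, adjusted p = 0.000891) and MCM6 (-1.20 ± 0.23, adjusted p = 0.00848). The proliferation marker MKI67 had 18.3, 15.3, 2.89 and 8.25 CPM in LE and 13.4, 5.14, 36.2 and 53.6 CPM in S (adjusted p = 0.381), with the 2 compartments overlapping.

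Not every gene higher in LE was higher than in GE, the other epithelium of the same gilts. Over the tested genes, 2097 (16.2%) were higher in LE than in GE and 1191 (9.19%) higher in GE, in 1 fit of all 16 cyclic libraries with the gilt as a block. Of the 936 genes at least 4-fold higher in LE than in S, 374 were also higher in LE than in GE and 65 were lower. Epithelial identity genes were mostly not called between the epithelia, with KRT7, ST14 and EHF the 3 of 22 higher in LE. Ion transport (14 of 23), cholesterol synthesis (12 of 24) and the prostaglandin pathway (5 of 8) had more members above GE. PTGS2 had 538 ± 322 CPM in LE and 7.85 ± 15.5 CPM in GE (7.55 ± 1.06, adjusted p = 0.000172), and UPTI had 1845 ± 804 and 16.1 ± 30.4 CPM (9.14 ± 1.23, adjusted p = 0.000127). CDH1 had 852 ± 92.7 and 382 ± 72.5 CPM and was not called (1.16 ± 0.58, adjusted p = 0.13). The counts with GE share the LE libraries with the counts against S. Of the named genes, those higher in LE with the smallest p were SLC26A4, with 1.38 to 1333 CPM in LE and 0 to 0.901 CPM in GE, CXCL16 (4.48 ± 0.28), EGF (5.06 ± 0.34), ABCC4 (6.11 ± 0.41), VEGFA (4.32 ± 0.31) and SLC2A13 (5.42 ± 0.44), each with an adjusted p of at most 4.45e-06. Among those lower in LE than in GE with the smallest p were the ciliary genes DNAH5 (-3.21 ± 0.47, adjusted p = 0.000244), CFAP44 (-3.04 ± 0.51, adjusted p = 0.000615) and HYDIN (-3.10 ± 0.58, adjusted p = 0.00123), the cytokine receptor chain IL6ST (-1.81 ± 0.31, adjusted p = 0.000657) and the ligand WNT2B (-4.18 ± 0.85, adjusted p = 0.002).

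S was set in the same way beside blood vessels (BV), the compartment nearest to it. Only 91 genes (0.702%) were higher in S than in BV and 132 (1.02%) higher in BV, and both counts fell to 0 without gilt C40 and without gilt C42. Of the 767 genes at least 4-fold higher in S than in LE, 34 were also higher in S than in BV and 18 were lower. PDGFRA had 2079 ± 829.1 CPM in S and 691 ± 177 CPM in BV (1.55 ± 0.24, adjusted p = 0.0038), PGR had 205 ± 45.1 and 80.1 ± 9.33 CPM (1.39 ± 0.25, adjusted p = 0.00767) and FGF10 had 131 ± 63.5 and 20.3 ± 9.73 CPM (2.66 ± 0.34, adjusted p = 0.00219). Of the named genes SLC26A4, an anion exchanger, had the smallest p (adjusted p = 0.00168), with up to 26.9 CPM in S and up to 0.335 CPM in BV, and that S level was reached by gilt C128 alone. The protease inhibitor of complement type CPAMD8 (2.08 ± 0.31, adjusted p = 0.00337), the factor WT1 (1.73 ± 0.32, adjusted p = 0.009), NRG2 (2.95 ± 0.43, adjusted p = 0.00337) and SLC1A3 (2.86 ± 0.43, adjusted p = 0.00367) were also higher in S than in BV. The integrin chain ITGA3 (-3.11 ± 0.43, adjusted p = 0.0028), the venular chemokine receptor ACKR1 (-2.81 ± 0.42, adjusted p = 0.00343), ID4 (-3.67 ± 0.58, adjusted p = 0.00449), FGL2 (-1.66 ± 0.27, adjusted p = 0.0047), WNT2B (-2.64 ± 0.47, adjusted p = 0.00727) and FGFR1 (-1.41 ± 0.25, adjusted p = 0.0066) were higher in BV. COL3A1, COL1A1 and COL1A2 were not called between S and BV.

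In pregnant gilts, in 1 fit of the 16 LE and S libraries of all 8 gilts, 811 genes were called and at least 4-fold higher in LE (6.26%) and 386 higher in S (2.98%). Of these, 563 were among the 936 cyclic genes of LE (60.1% of the cyclic and 69.4% of the pregnant genes) and 300 among the 767 of S (39.1% and 77.7%). The median log2 difference of the cyclic genes was 2.58 in pregnant gilts for those of LE and -1.93 for those of S, beside 3.72 and -2.48 in cyclic gilts. These genes were chosen for a wide difference in the cyclic libraries, and such a choice alone lowers the median in other gilts. The medians therefore do not show whether the difference changed with pregnancy. Whether the difference between LE and S itself changed with pregnancy was tested as an interaction, which 7 genes (0.0540%) passed, with 1808 genes at an unadjusted p under 0.05. These genes are outside the rule for named genes and were named after their values had been seen.

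MGST1, a microsomal glutathione transferase, had a LE minus S difference of 4.22 in cyclic and 1.53 in pregnant gilts (interaction -2.67 ± 0.29, adjusted p = 0.00862), and MBOAT1, an acyltransferase of phospholipids, 3.53 and 1.04 (interaction -2.46 ± 0.22, adjusted p = 0.00823). Their levels in LE were 509 ± 256 and 196 ± 51.5 CPM in cyclic and 152 ± 57.1 and 45.8 ± 7.5 CPM in pregnant gilts. The other 5 genes, of which 4 are given here, moved towards LE in pregnant gilts. FGL2, a fibrinogen-like protein of immune cells, had 15.5 ± 2.44 CPM in LE and 84.9 ± 39.1 CPM in S of cyclic gilts and 486 ± 184 and 96.1 ± 31.1 CPM in pregnant gilts (interaction 4.65 ± 0.49, adjusted p = 0.00862). WNK1, a kinase that controls ion transport, EIF4E3, a cap-binding protein, and GNPTAB, which tags lysosomal enzymes, had interactions of 2.32, 2.34 and 2.18 (adjusted p = 0.00862, 0.00862 and 0.00862). THY1, a surface protein of fibroblasts and T cells, changed side as FGL2 did, from -2.63 to 1.83, with an adjusted p of 0.01001 for the interaction. Without gilt C78, 4 of the 7 genes still passed, and leaving out any other of the 8 gilts left no gene past the limit for the interaction. Of the genes at least 4-fold higher in cyclic LE none was called higher in S of pregnant gilts, and of those of S only FGL2 and THY1 were called higher in LE.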

How the data were processed

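RNA of LCM-collected LE and S from 4 cyclic gilts was amplified with the Ovation SoLo kit and sequenced as single reads. Per the study's methods, the authors trimmed reads with Trim Galore, mapped them with Hisat2 to Sscrofa11.1, removed duplicates with nudup and counted reads per gene with QuasR's qCount, and versions are not given in the sources used here. The deposited values were raw counts per NCBI gene, 1 table per compartment, and the authors also deposited a table per compartment with only the genes past their CPM filter, which set the genes tested here. The value of that filter and the use of strand in counting are not given in the sources used here. 1 pregnant GE sample was not analysed here, and some genes and 1 promoter are not reported here.

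Counts were normalised by TMM and tested with edgeR 4.0.16 (R 4.3.3, limma 3.58.1) by quasi-likelihood, with the gilt as a block and Benjamini-Hochberg adjustment over all 12959 genes. A difference was called at an adjusted p under 0.01. Per-gene values are mean ± SD of CPM (n = 4), log2 differences are LE minus S ± SE, and p-values are two-sided. The SE was worked back from the quasi-likelihood test, as the absolute log2 difference over the square root of the F statistic. Samples with 1 number came from the same gilt by the labels, and the correlation of their deviations from the group means was 0.217 for gilt C40, -0.00509 for C42, 0.0709 for C78 and 0.295 for C128. LE of each gilt against S of the other gilts gave -0.235 to 0.104 for C40, -0.162 to 0.0993 for C42, -0.141 to 0.0673 for C78 and -0.203 to -0.026 for C128. The own value of C42 was thus below the highest of these, and that of C78 was about level with it. GE and BV were compared within 1 fit of 16 cyclic libraries, and pregnancy within 1 fit of 16 LE and S libraries. The scripts were tested on simulated data. Alternatives were DESeq2 1.42.0, edgeR's robust likelihood ratio test, other scalings, filters and fits without a block, thinned counts and leaving out each gilt. Floors and ratios of pooled counts with exact 95% (Clopper-Pearson) intervals cover counting error only.

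Named genes were, in each direction, the 12 called genes with the widest difference, at least 20 CPM in the higher compartment and 1 direction in all 4 gilts, the 8 called and at least 4-fold different with the highest level per kilobase, up to 4 members of each list with at least 5 CPM, called ligands and receptors, defining members that were not called, and, of GE, BV and the interaction, the 6 of these with the smallest p. The members and lists were chosen with earlier results of these data known. Genes were named through NCBI gene IDs in the RefSeq annotation of Sscrofa11.1, and promoters were read from that genome. Exons of PTGS2 and PLA2G4A overlap on opposite strands. So do those of NMU, WDR72, FGF2, IL24, TRPV6, GRHL2, CTNNB1, WNT2B, WLS, IGF1R, NRG2, TGFB3 and OSMR with neighbours. The same holds for ITGA2, ITGAM, ITGAV, LAMB1, MMP16, HOXA10, NR2F2, WT1, ZEB2, SLC7A9, RIPOR3, CFAP44, WNK1, EIF4E3 and LOC396781. Exons of HPGD, LFNG, TPPP3 and TRPV6 overlap those of neighbours on the same strand. Reads of UGT and immunoglobulin families may be shared as well, so all these counts are uncertain.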

Additional observations from a re-analysis of the deposited data

Results flagged for a closer look

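In 244 sets of 4 libraries, formed by LE or S for each gene given by library and for the marker sums, 45 had 1 library far from the other 3 by Dixon's test (18.4%), where chance flags about 1 in 20 for independent values with a normal spread. CPM of related genes are neither, and a set with 3 libraries at 0 is always picked out, so the share does not measure an excess. The library was LE of gilt C128 in 13 sets, S of gilt C78 in 12 and S of gilt C128 in 8. Values below are CPM of that library against the range of the other 3.

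LE of gilt C128 was high for WNT2 (49.8 against 9.38 to 13.5), CDH17 (1932 against 26 to 80.5), WNT2B (1.06 against 0), WNT7A (122 against 5.66 to 8.64), LOC396781 (1.86 against 0 to 0.24) and DEFB1 (149 against 12 to 28.8). High in LE of gilt C128 were also PTGES (70.8 against 16.8 to 20.5), SCNN1A (384 against 97.2 to 138), SLC26A4 (1336 against 1.44 to 4.14) and SLC5A1 (452 against 59 to 72). LE of gilt C128 was low for VEGFA (40.7 against 117 to 132), IL1A (2.13 against 50.4 to 54.8) and SCNN1B (17 against 68 to 77.2). S of gilt C78 was high for AGR2 (71.6 against 0.387 to 7.54), UGT2B31 (1.22 against 0), NOS1 (205 against 2.2 to 12.6), WDR72 (12.2 against 0 to 1.74), ASAH1 (226 against 46.7 to 74.2) and MUC4 (5.23 against 0 to 0.194). High in S of gilt C78 were also MUC5AC (4.01 against 0 to 0.279), IL1RAP (31.5 against 9.5 to 13.2), PTGS2 (48.6 against 1.94 to 5.59), RBP4 (64.3 against 2.71 to 8.45), TRPV6 (5.93 against 0 to 0.968) and S100G (1.57 against 0). S of gilt C128 was high for TMC5 (1.36 against 0), CDH17 (30 against 0 to 1.39), SMO (57.5 against 36 to 37.8), FGFBP1 (1.16 against 0), WNT2B (35.4 against 1.05 to 6.24) and WNT7A (2.13 against 0 to 0.174). High in S of gilt C128 were also SLC26A4 (27.1 against 0 to 0.349) and AQP1 (215 against 30.5 to 50.3). LE of gilt C42 was high for KCNQ5 (16.7 against 1.33 to 3.85), C4BPA (1.44 against 0 to 0.218), C4BPA (13.8 against 1.31 to 2.89) and CXCL16 (318 against 173 to 197). LE of gilt C78 was high for LIF (48.3 against 0 to 5.01) and TRPV6 (113 against 43.1 to 54.8). LE of gilt C78 was low for NR2F2 (56 against 157 to 161). S of gilt C42 was high for EGF (10.7 against 5.4 to 6.2), LOC396781 (427 against 0.523 to 30.5) and LOC102167964 (190 against 0.697 to 30.2). In gilt C40 LE was high for ADAMTS4 (7.4 against 4.52 to 4.9), and the erythroid marker sum in S was 1174 CPM against 277 to 318.

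The LE minus S difference differed between pregnant and cyclic gilts by the interaction test in 7 genes, of which 6 are given here as the pregnant minus the cyclic log2 difference. It was smaller in pregnant gilts for MBOAT1 (-2.46) and MGST1 (-2.67) and larger for GNPTAB (2.18), EIF4E3 (2.34), WNK1 (2.32) and FGL2 (4.65). These genes were called at an adjusted p under 0.01 in edgeR's quasi-likelihood test with 4 gilts a state.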

How the results depend on the processing

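The main counts were 1747 genes higher in LE and 1395 higher in S, and 936 and 767 at least 4-fold. In the fits without the gilt block, thus not paired, they were 1961, 1734, 946 and 818. More genes were called in both directions by edgeR's robust likelihood ratio test (2466 higher in LE and 2370 in S) and by DESeq2 (2433 and 2298). The spread estimated over 16 cyclic libraries gave 2610 and 2408. The fit of gilts C40 and C42 alone, added after seeing the data, called 2425 genes higher in LE and 2152 in S. An FDR of 5% gave 3022 in LE and 2686 in S. Genes kept in both filtered tables gave 516 at least 4-fold higher in LE. Leaving out 1 gilt gave 0 to 1373 genes higher in LE, 0 to 1327 higher in S, and 0 to 847 and 0 to 687 at least 4-fold, the 0 always being gilt C40, for which the cause was not tested. LE exceeded GE in 882 to 1815 genes and GE exceeded LE in 499 to 1277, S exceeded BV in 0 to 82 and BV exceeded S in 0 to 114, and the interaction with pregnancy had 0 to 7 calls and 38 without the block.

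None of the 186 named genes that were called reversed its direction under any alternative run, which says nothing of named genes that were not called. The 186 were chosen from these same libraries, so a reversal was unlikely from the start. Of the 186, 169 stayed called without the block, 0 without gilt C40, 123 without gilt C42, 167 without gilt C78 and 138 without gilt C128. Every other scaling and filter moved the counts by less than 1.5 times, and between 50.9% and 62.4% of calls were higher in LE, against 55.6%. With 3095926 to 5388161 counts per library, genes under about 0.2 CPM over a group were not measured.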

Other observations

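Levels of LE genes in S were set beside those in LE of the same gilts. Over 707 genes at least 4-fold higher in LE with at least 20 CPM there, the log2 ratio between 2 gilts in S was set against the log2 ratio between the same gilts in LE. Pearson's r across genes was 0.701 for gilts C78 and C128, 0.525 for C40 and C128, 0.479 for C42 and C128, 0.268 for C40 and C78, 0.171 for C42 and C78 and 0.0885 for C40 and C42. The SD of the LE log2 ratio across genes was 1.53 to 1.73 in the pairs with gilt C128 and 0.608 to 0.824 in the others. Because r depends on that spread, the r values of the pairs cannot be ranked against each other. Genes are not independent replicates, and the points of a pair share 4 libraries, so no p is given. SLC26A4, CDH17 and WNT7A, which were high in LE of gilt C128, were also highest in S of gilt C128, and AGR2, NOS1 and RBP4, low in LE of gilt C128, were high in S of gilt C78 and not in S of gilt C128.

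Some genes outside the paragraphs above, named after their values were seen, were also called. The clock repressors NR1D1 (4.52 ± 2.60 CPM in LE and 25.3 ± 6.50 CPM in S, log2 difference -2.53 ± 0.40, adjusted p = 0.0042) and NR1D2 (102 ± 10.7 and 264 ± 91.4 CPM, -1.30 ± 0.22, adjusted p = 0.00517) were higher in S. LOX, which cross-links collagen, had 8.81 ± 5.26 CPM in LE and 65.0 ± 32.6 CPM in S (-2.84 ± 0.37, adjusted p = 0.00233). The complement chains C1QA (-2.26 ± 0.23, adjusted p = 0.00129) and C1QB (-1.83 ± 0.24, adjusted p = 0.00246), products of macrophages, were higher in S. So were 7 of 14 leukocyte markers tested, against 10.8% of all genes. On the side of LE, AQP5, a water channel of secretory epithelia, had 5.43 ± 4.27 CPM in LE and 0.0871 ± 0.174 CPM in S (5.06 ± 0.89, adjusted p = 0.00894). That S mean was under the 0.174 CPM read as detection in S, so the size of the difference is uncertain. LRAT, which stores retinol as esters, had 31.1 ± 13.3 CPM in LE and 1.96 ± 2.19 CPM in S (4.06 ± 0.47, adjusted p = 0.0017). Of the prostaglandin receptors, PTGER2 (2.89 ± 0.53, adjusted p = 0.00727) and PTGER4 (2.38 ± 0.26, adjusted p = 0.00142) were higher in LE.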
